A study of Mus musculus with 11 samples.

Results

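The genes described here are 10 immediate early genes of neuronal activity: Arc, Egr1, Egr2, Egr3, Nr4a1, Npas4, Fosl2, Fosb, Fos and Junb. They were taken by gene symbol from a deposited expression table of 14864 genes, in all 11 of its columns. All 10 reached a mean of at least 1 CPM, the count scaled to the library's size, over the libraries, and they are 10 of the 13184 genes tested. The table comes from RNA sequencing of the adult mouse hypothalamus in a study of MYT1L loss. The Het group has 6 libraries, 3 female and 3 male, labelled as heterozygous, and the WT group has 5, 2 female and 3 male, labelled as wild type. The mice were 60 to 70 postnatal days old. The labels name no allele, no treatment and no stimulus. The series design calls these libraries biological replicates. P-values and intervals measure the spread left between them after a correction by the authors. That correction removed residual variation, so p-values are too small by an unknown amount.

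Immediate early genes are transcribed within minutes of synaptic activity, calcium entry or a growth factor, from promoters that already carry their transcription factors, and need no new protein for it. Calcium entering through NMDA receptors and voltage-gated channels activates CaM kinases and MAP kinases, which phosphorylate CREB and the SRF cofactors bound at these genes. Most of the products are transcription factors of the EGR, NR4A, NPAS4 and AP-1 (FOS and JUN) families that switch on later genes, while Arc acts at the synapse itself. In the hypothalamus, Fos is widely used to mark neurons that have just responded to a stimulus such as feeding, dehydration or stress.

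CREB binds the cyclic AMP response element, whose core TGACG was searched on both strands of the 250 bases before annotated start sites. Windows of this kind from RefSeq on build GRCm38.p6 were found for 7 of the 10 genes, 11 windows in all since Egr2 has 5 annotated starts. At least 1 core was found in 8 of these 11 windows, which belong to 6 genes and partly overlap, against 17.8% of 32851 mouse windows. Arc, Egr1 and Egr3, which passed the test described below, had no window. The Fosl2 window, also of a gene that passed, held no core. Among genes that did not pass, the windows of Fosb and Junb held 1 core each and that of Npas4 held 2. Whether cores go with the outcome of the test was not tested. The sequences of Nr4a1 and Egr2, which passed, and of Fos, which did not, are shown. They let these members be compared over the 250 bases searched. All run 5′ to 3′ on the plus strand, which is the strand of these genes, and end 1 base before the start site. Capitals mark the core, as TGACG or, on the other strand, as CGTCA.
Nr4a1, chr15:101266596-101266845: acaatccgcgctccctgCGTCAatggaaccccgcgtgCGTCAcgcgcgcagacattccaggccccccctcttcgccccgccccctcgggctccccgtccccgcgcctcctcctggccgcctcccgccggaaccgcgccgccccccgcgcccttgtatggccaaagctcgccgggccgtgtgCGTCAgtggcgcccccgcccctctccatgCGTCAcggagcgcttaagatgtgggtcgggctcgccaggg
Egr2, chr10:67537619-67537868, 1 of 5 annotated starts: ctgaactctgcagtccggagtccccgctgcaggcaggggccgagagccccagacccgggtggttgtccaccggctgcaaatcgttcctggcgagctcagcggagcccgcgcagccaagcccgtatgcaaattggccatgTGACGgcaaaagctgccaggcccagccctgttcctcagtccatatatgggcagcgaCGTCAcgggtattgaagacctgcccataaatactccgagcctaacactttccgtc
Fos, chr12:85473640-85473889: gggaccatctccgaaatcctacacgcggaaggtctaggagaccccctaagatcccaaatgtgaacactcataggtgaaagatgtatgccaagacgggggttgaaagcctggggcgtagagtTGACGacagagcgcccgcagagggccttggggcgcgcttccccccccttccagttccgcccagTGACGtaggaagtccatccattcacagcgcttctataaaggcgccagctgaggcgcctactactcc
The Nr4a1 window holds 4 cores, which begin 233, 213, 69 and 40 bases before the start. Of the 5 Egr2 windows 3 hold cores, and these overlap each other. The one shown holds 2, at 111 and 55 bases, and also a CArG box, the element bound by SRF, at 72 bases. The Fos window likewise holds 2 cores, at 129 and 66 bases. No CArG box was found in the Nr4a1 and Fos windows. Bases farther from the start were not searched, so the windows cannot show whether these genes lack one. At least 2 cores were found in 3.9% of mouse windows and a CArG box in 1.47%. A match is a string of letters and was not tested as a binding site.

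Of the 10 genes, 6 were higher in the libraries labelled Het than in those labelled WT, and none was lower. These were the synaptic effector Arc, the transcription factors Egr1, Egr2 and Egr3, the orphan nuclear receptor Nr4a1 and the AP-1 subunit Fosl2. Their mean levels in Het libraries were 1.55 to 3.03 times those in WT libraries. Npas4, Fosb, Fos and Junb did not pass the test. The test was limma on log2(CPM + 0.5) with sex as a term, and a gene passed at a Benjamini-Hochberg adjusted p under 0.05 over all 13184 genes. Of all genes tested, 3.44% passed, 2.3% as higher and 1.14% as lower. The median log2 difference of the 10 genes was 0.64, against -0.02 over all genes tested. Without the libraries labelled WT replicate 11 and Het replicate 9, whose Myt1l levels go against their labels, 4 of the 10 passed, where 1.24% of all genes passed as higher. Striatal markers moved the same way, 7 of 14 being higher in Het libraries, and with their mean as a covariate none of the 10 genes passed, where 0.152% of all genes passed as higher. In these whole-tissue libraries, fewer or more cells of a type and a different amount of RNA per cell cannot be told apart.

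**Figure D1:**
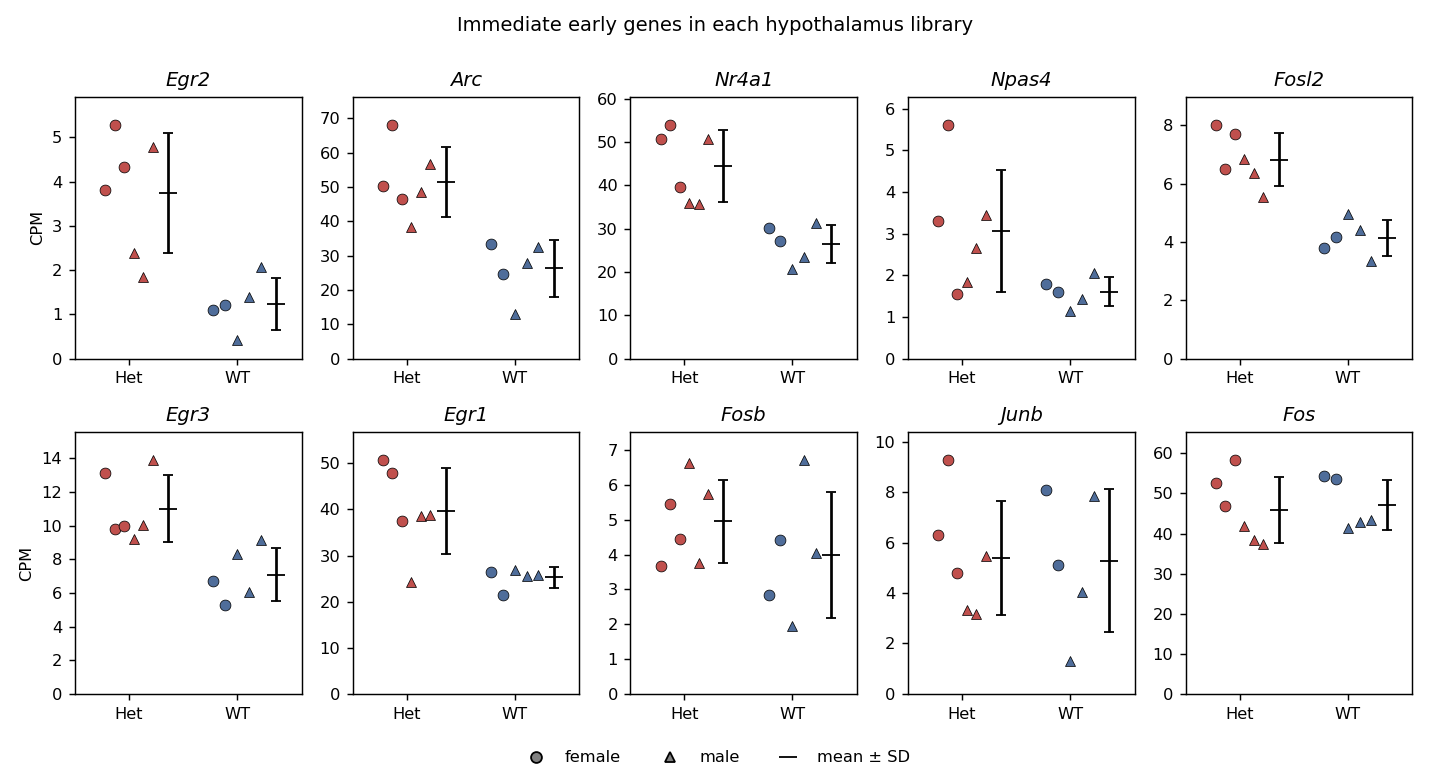
Level of each of the 10 genes in CPM (vertical axes, from 0) in the 6 Het libraries (red, left) and 5 WT libraries (blue, right), with circles for females, triangles for males and bars for mean ± SD. All Het values lie above all WT values for Arc, Nr4a1, Fosl2 and Egr3, whereas the groups overlap for the other 6 genes.

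The labels and the libraries need 1 reservation. Myt1l itself averaged 76.3 ± 26.9 CPM in libraries labelled Het (SD, n = 6) and 76.3 ± 15.9 CPM in libraries labelled WT (SD, n = 5), which differ by -0.01 on the log2 scale (SE 0.18, limma adjusted p = 0.976). The library labelled Het replicate 9 had the highest Myt1l level of all, 130 CPM, and the library labelled WT replicate 11 the lowest, 51.1 CPM, so results are also given without these 2 libraries. Transcripts of a mutated allele may be counted too, which makes this level an incomplete check. Hypothalamic markers were present in every library, with summed levels of 2320 to 3671 CPM in Het and 3326 to 4296 CPM in WT libraries. Corrected counts summed to 22921048 to 24941704 per library, each worth 0.0417 to 0.0423 CPM. Sample descriptions begin with a number of unstated meaning, called the prefix here: 14308 holds 2 Het and 2 WT libraries, all male, 14309 holds 4 Het and 2 WT libraries, and 14111 holds WT replicate 4 alone.

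Arc encodes a cytoskeleton-associated protein that travels to active synapses and removes AMPA receptors from them. In the Het libraries it ranged from 38.2 through a median of 49.4 to 68.2 CPM, against 33.5, 24.6, 12.9, 27.9 and 32.6 CPM in WT replicates 4, 6, 3, 7 and 11. The groups did not overlap, and the lowest WT value belonged to replicate 3, which was also the lowest library for 5 other members. Means were 51.4 ± 10.2 CPM in Het (SD, n = 6) and 26.3 ± 8.32 CPM in WT libraries (SD, n = 5). The log2 difference was 0.98 (SE 0.19, 95% confidence interval 0.58 to 1.38, limma adjusted p = 0.0124). Exact permutation of the genotype labels inside each sex, two-sided, gave p = 0.005, the smallest value its 200 arrangements allow. All 6 Het values lay above all 5 WT values in 2.02% of genes tested and below them in 1.33%.

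Nr4a1 (Nur77) is an orphan nuclear receptor that is induced without a ligand and, in neurons, regulates the density of dendritic spines. It ranged from 35.6 through a median of 45.2 to 54.0 CPM in Het libraries, against 30.0, 27.2, 20.7, 23.3 and 31.2 CPM in WT replicates 4, 6, 3, 7 and 11. No Het value fell within the WT range. Nr4a1 averaged 44.4 ± 8.30 CPM in Het (SD, n = 6) and 26.5 ± 4.45 CPM in WT libraries (SD, n = 5). Its log2 difference of 0.71 (SE 0.12, interval 0.45 to 0.96) had the smallest limma adjusted p of the 10 genes, 0.00707, and an exact permutation p of 0.005. Arc and Nr4a1 passed in each of the 11 runs that left out 1 library, with log2 differences of 0.77 to 1.10 for Arc and 0.63 to 0.79 for Nr4a1. On build mm10, Arc lies on chromosome 15 from 74669083 to 74672570 (minus strand) and Nr4a1 on the same chromosome from 101254269 to 101274795 (plus strand), and levels are counted over whole genes.

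The 3 EGR genes encode zinc finger factors that bind a shared GC-rich element. Egr2 (Krox20) is best known for its part in myelination and hindbrain patterning and is also induced by synaptic activity. It had the largest log2 difference of the 10 genes, at a low level: 1.85 to 5.28 CPM with a median of 4.06 in Het libraries, against 1.09, 1.22, 0.422, 1.38 and 2.06 CPM in WT replicates 4, 6, 3, 7 and 11. Het replicate 8 was the single Het library below the highest WT value, that of the library labelled WT replicate 11. Means were 3.74 ± 1.36 CPM in Het (SD, n = 6) and 1.23 ± 0.589 CPM in WT (SD, n = 5), which differ by 1.26 on the log2 scale (SE 0.27, interval 0.68 to 1.84, limma adjusted p = 0.0224, exact permutation p = 0.01). Since values this low are drawn in by the pseudocount, that difference was 1.53 with a pseudocount of 0.1 and 0.79 with one of 2, and passed with both.

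Egr1 (Zif268), a factor required for lasting synaptic plasticity and memory, lay at 24.3 to 50.7 CPM with a median of 38.7 in Het libraries. The WT values of Egr1 were 26.5, 21.4, 26.9, 25.6 and 25.8 CPM in replicates 4, 6, 3, 7 and 11. Of the Het libraries 5 stood above every WT library, while Het replicate 5 lay inside the WT range. Egr1 averaged 39.7 ± 9.29 CPM in Het (SD, n = 6) and 25.3 ± 2.19 CPM in WT (SD, n = 5), with a log2 difference of 0.59 (SE 0.14, interval 0.30 to 0.88, limma adjusted p = 0.0307, exact permutation p = 0.025).

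Egr3, an EGR factor needed for muscle spindle development that acts downstream of activity in neurons, ranged from 9.18 through a median of 10.02 to 13.9 CPM in Het libraries. In WT replicates 4, 6, 3, 7 and 11, Egr3 was at 6.72, 5.29, 8.31, 6.04 and 9.12 CPM. The groups of Egr3 did not overlap, but the lowest Het and the highest WT value nearly touched. Its log2 difference was 0.62 (SE 0.15, interval 0.30 to 0.95, limma adjusted p = 0.0368, exact permutation p = 0.005). Egr1 lies on mm10 chromosome 18 from 34859823 to 34864984, Egr2 on chromosome 10 from 67535475 to 67542188 and Egr3 on chromosome 14 from 70077203 to 70082614, all on the plus strand.

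Npas4 is a basic helix-loop-helix factor that responds selectively to calcium entry in neurons and organises inhibitory synapses. It had 1.55 to 5.62 CPM with a median of 2.97 in Het libraries, against 1.79, 1.59, 1.14, 1.43 and 2.06 CPM in WT replicates 4, 6, 3, 7 and 11. Of the Het libraries 4 lay above the whole WT range and the other 2 inside it. The log2 difference of 0.67 (SE 0.26, interval 0.13 to 1.21) was as large as that of Fosl2, but its limma adjusted p was 0.138 and its exact permutation p 0.055, so it did not pass. Npas4 lies on mm10 chromosome 19 from 4984355 to 4990316, on the minus strand.

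Of the 4 AP-1 subunits, 1 passed. Fosl2 (Fra-2), a FOS family protein that lacks the strong activation domain of Fos, ranged from 5.54 through a median of 6.67 to 8.03 CPM in Het libraries, against 3.80, 4.16, 4.98, 4.40 and 3.36 CPM in WT replicates 4, 6, 3, 7 and 11. The groups did not overlap. The gene lies on mm10 chromosome 5 from 32135801 to 32157842, on the plus strand. Fosl2 averaged 6.83 ± 0.918 CPM in Het (SD, n = 6) and 4.14 ± 0.611 CPM in WT (SD, n = 5), with a log2 difference of 0.65 (SE 0.14, interval 0.35 to 0.96, limma adjusted p = 0.0239, exact permutation p = 0.005).

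Fos, the founding member and the one most used as an activity marker, had 37.3 to 58.3 CPM with a median of 44.5 in Het libraries, against 54.4, 53.6, 41.3, 42.9 and 43.4 CPM in WT replicates 4, 6, 3, 7 and 11. The WT values lay wholly inside the Het range. Fos had a log2 difference of -0.08 with a narrow interval, -0.23 to 0.06 (limma adjusted p = 0.506), which leaves out a change as large as that of any of the 6 genes that passed. Fosb, whose truncated product accumulates under repeated stimulation, lay at 3.68 to 6.62 CPM in Het and 1.94 to 6.71 CPM in WT libraries, with a log2 difference of 0.36 (interval -0.15 to 0.87, limma adjusted p = 0.393). Junb, a JUN family partner of the FOS proteins, spread widely, over 3.16 to 9.27 CPM in Het and 1.31 to 8.10 CPM in WT libraries. Its difference of 0.06 has an interval of -0.58 to 0.70 (limma adjusted p = 0.925), too wide to show whether Junb changed like Fosl2 or not. Fos lies on mm10 chromosome 12 from 85473890 to 85477273, Fosb on chromosome 7 from 19302696 to 19310051 and Junb on chromosome 8 from 84974484 to 84978718. The exons of Junb overlap those of Prdx2 on the opposite strand over 173 bases, and no source used here says if reads were counted by strand, so its level is uncertain.

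**Figure D2:**
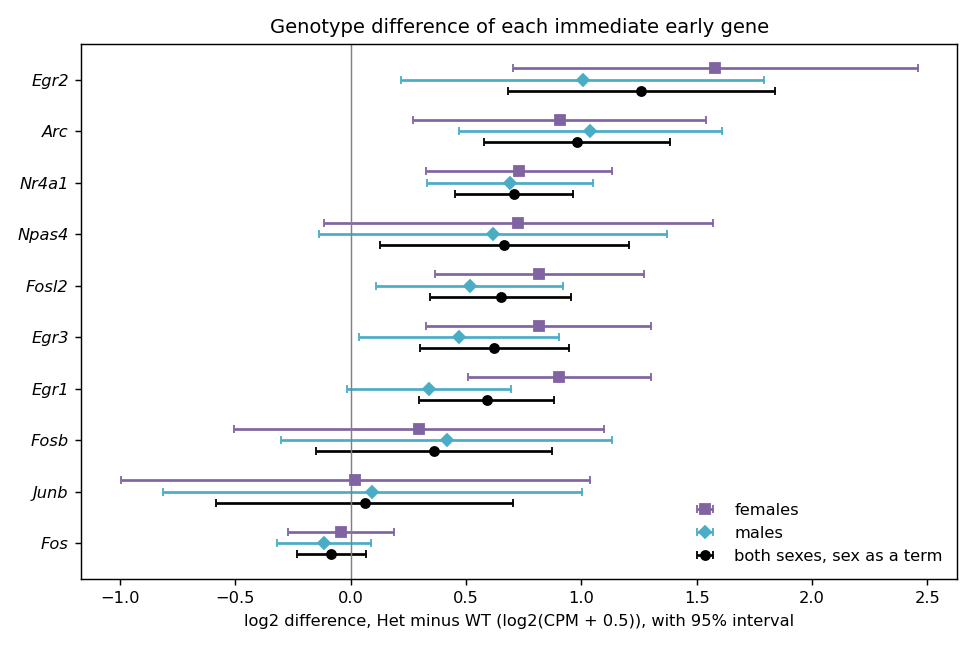
Log2 difference of Het minus WT (horizontal axis, log2(CPM + 0.5) scale) for each of the 10 genes in females, in males and in both sexes with sex as a term, where bars are 95% intervals. For both sexes the intervals of 7 genes, Npas4 included, lie above 0, those of Fosb and Junb cross it, and that of Fos runs from -0.23 to 0.06.

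Compared per kilobase of exon, Fos was the most abundant of the 10 transcripts, at 19.8 ± 3.03 CPM per kb (SD, n = 11). Arc followed at 13.1, Nr4a1 at 10.3 and Egr1 at 7.38 CPM per kb. A second set was lower, with Junb at 2.32 and Egr3 at 2.09 CPM per kb. Egr2 and Fosb, at 0.765 and 0.723, and Npas4 and Fosl2, at 0.581 and 0.579 CPM per kb, closed the order. Of the neighbours in this order, Egr1 (4.78 to 11.3 CPM per kb over the libraries) and Junb (0.568 to 4.03) did not overlap, and all other neighbours overlapped. Among Het libraries Arc reached 16.8 CPM per kb, close to Fos at 19.5, while among WT libraries Arc stood at 8.59 and Fos at 20.03 CPM per kb.

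In females, 9 of the 10 genes had a positive difference, and the same 9 had one in males. The share of all genes positive in both sexes was not counted. Over all genes tested the median difference was -0.0025 in females and -0.025 in males. These differences came from the fit of all 11 libraries with a genotype by sex term, so neither sex was fitted by itself. For females no member passed the limma test, nor did any of the 13184 genes (0%), of which 1743 had an unadjusted p under 0.05. The lowest limma adjusted p of a member was 0.0913. Within males 0.0683% of genes passed, 0.0531% as higher and 0.0152% as lower, and the lowest adjusted p of a member was 0.120. The female difference minus the male one was positive for 7 genes. These include Fos, whose difference was -0.04 in females and -0.12 in males. The share of all genes with a larger value in females was not counted either. Egr1 was the 1 member whose genotype by sex term had an unadjusted p under 0.05. It stood at 50.7, 47.9 and 37.6 CPM in Het females against 26.5 and 21.4 CPM in WT females. In males, Egr1 had 24.3, 38.6 and 38.8 CPM in Het against 26.9, 25.6 and 25.8 CPM in WT libraries. Its log2 difference was 0.90 in females and 0.34 in males. The genotype by sex term of Egr1 was 0.57 (SE 0.25), with an unadjusted limma p of 0.0389 and an adjusted one of 0.982, and no gene passed that test (0%), with 613 at an unadjusted p under 0.05, so no member was shown to respond differently by sex.

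Sex itself separated 1 of the 10 genes, Fos, which did not differ by genotype beyond the spread between libraries. Het females had 52.5, 47.0 and 58.3 CPM of Fos and WT females 54.4 and 53.6 CPM. Het males had 42.0, 38.4 and 37.3 CPM and WT males 41.3, 42.9 and 43.4 CPM. Every female was thus above every male, as in 0.41% of genes tested. The female minus male log2 difference was 0.38 (SE 0.07, interval 0.23 to 0.53, limma adjusted p = 0.0372), with a two-sided exact permutation p of 0.005, where 0.197% of genes passed, 0.0758% as higher and 0.121% as lower in females. Prefix 14308 holds males only. Within prefix 14309 alone the difference of Fos was 0.41, with an adjusted p of 0.436, and with prefix as a block it was 0.41, with an adjusted p of 0.297. The Fos call was also lost without Het replicate 2, 7, 5, 8 or 9 and without WT replicate 4, 6 or 7, where the adjusted p was 0.0579 to 0.130 and the difference 0.34 to 0.40. It was lost too without WT replicate 11 and Het replicate 9 together (0.0756), with 1 residual degree of freedom fewer (0.0882), without the trend (0.0919) and with the striatal covariate (0.0516). Junb was higher in females by 0.72, with a limma adjusted p of 0.349.

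The number of genes past the threshold depended on single libraries, and so did the share of all genes. Without Het replicate 2, 8 or 9, 3 of the 10 genes passed, where 1.22%, 1.14% and 1% of all genes passed as higher. Without WT replicate 4 or 6, 2 passed, where 1.1% and 0.85% of all genes did. Without Het replicate 4 or WT replicate 7, 4 passed, where 1.49% and 1.43% did, and 5 passed without Het replicate 7, where 1.68% did. Without Het replicate 5, WT replicate 3 or WT replicate 11, 6 passed, where 1.75%, 3.34% and 2.17% did. Egr2 did not pass without Het replicate 9, WT replicate 4 or WT replicate 6, where its adjusted p was 0.0651, 0.0601 and 0.0688. Fosl2 did not pass without Het replicate 2, Het replicate 8, WT replicate 4 or WT replicate 6, at adjusted p-values of 0.0554, 0.0539, 0.0683 and 0.0774. Egr1 did not pass without Het replicate 2, 4, 8 or 9 or WT replicate 4, 6 or 7, where its adjusted p was 0.0640, 0.0577, 0.0717, 0.0747, 0.0664, 0.106 and 0.0536 in that order. Egr3 did not pass without Het replicate 2, 4, 7, 8 or 9 or WT replicate 4, 6 or 7, with 0.0780, 0.0568, 0.0531, 0.0574, 0.0883, 0.0683, 0.124 and 0.0846. The log2 differences themselves moved little in these runs and stayed between 0.48 and 0.73 for Egr1 and between 0.53 and 0.70 for Egr3.

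Without both the library labelled WT replicate 11 and that labelled Het replicate 9, 4 of the 10 genes passed, Arc, Nr4a1, Egr2 and Fosl2. Their log2 differences were 1.02, 0.71, 1.31 and 0.65. Egr1 at 0.59 and Egr3 at 0.63 then had adjusted p-values of 0.0758 and 0.0587. With prefix as a block, which gives WT replicate 4 no weight, 4 genes passed, Arc, Nr4a1, Egr2 and Egr3, where 1.43% of all genes passed as higher. Within prefix 14309 alone Arc passed, at 0.99, where 0.121% of genes passed as higher. Within prefix 14308 alone no member passed, 0.0303% of genes passed as higher, and Arc, Nr4a1 and Egr2 stood at 1.16, 0.69 and 0.98. With 1 residual degree of freedom fewer, for the direction that the authors' correction removed, 4 genes passed, where 1.1% of genes passed as higher. Egr3 and Fosl2 then had adjusted p-values of 0.0676 and 0.0546. Without limma's trend 2 genes passed, Nr4a1 and Fosl2, where 1.02% of all genes passed as higher. Without the sex term 5 passed, where 1.26% did, and Egr3 did not, at 0.0577.

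**Figure D3:**
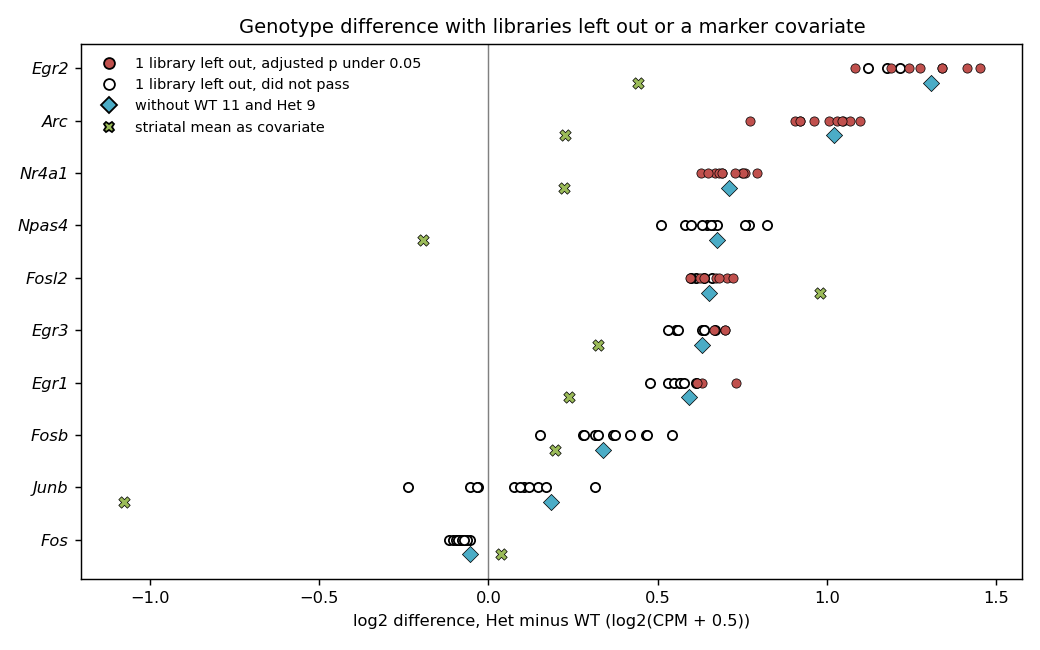
Log2 difference of Het minus WT (horizontal axis) for each gene in the 11 runs that leave out 1 library (circles, filled where the adjusted p was under 0.05), without WT replicate 11 and Het replicate 9 (diamonds), and with the mean of the striatal markers as a covariate (crosses). Arc and Nr4a1 are filled in all 11 runs, and the crosses lie nearer 0 than the circles for Arc, Nr4a1, Egr1, Egr2 and Egr3 but farther from 0 for Fosl2.

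Markers of the striatum, a neighbouring forebrain region, moved with these genes. Of 14 such markers 7 were higher in the Het libraries and none lower, all 14 differences were positive, and their median was 0.51. The 14 markers summed to 582 to 1010 CPM in Het and 419 to 710 CPM in WT libraries, and each of the 14 was above 0 in every library. Of 15 hypothalamic markers 5 were lower and none higher, with a median of -0.27. With the mean striatal marker level as a covariate, the differences were 0.22 for Arc, 0.22 for Nr4a1, 0.24 for Egr1, 0.32 for Egr3 and 0.44 for Egr2, with adjusted p-values of 0.373 to 0.609. Fosl2 had a larger difference in that fit, 0.98, with an adjusted p of 0.0533. The library labelled WT replicate 11 had a striatal sum of 710 CPM, above those of Het replicates 2, 7 and 5 at 695, 582 and 618 CPM. Its Arc level was 32.6 CPM and its Nr4a1 level 31.2 CPM, both below every Het library. It had the highest WT level of Nr4a1, of Egr2 and Npas4 (both 2.06 CPM) and of Egr3 (9.12 CPM). Its Egr2 level was above the 1.85 CPM of Het replicate 8. It did not have the highest WT level of Arc, Egr1, Fosl2, Fosb, Fos or Junb.

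Other cell types and regions gave smaller counts. None of 8 pan-neuronal, 8 cortical and hippocampal, 8 brain endothelial, 7 microglial or 5 choroid plexus markers passed, with median log2 differences of 0.05, 0.11, 0.03, -0.06 and -0.44. Of the thalamic markers 1 of 7, Tcf7l2, and of the astrocyte markers 1 of 6, Slc1a2, passed as higher; both were picked out after their values were seen. The part of tissue composition in the differences of the immediate early genes was not tested beyond these values.

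Other genes of the activity response were taken from 4 lists. Of 6 further AP-1, EGR corepressor and NR4A genes none passed, with a median of 0.03. Jun, the main partner of Fos, averaged 20.8 ± 5.22 CPM in Het and 27.7 ± 8.29 CPM in WT libraries, a difference of -0.43 with a limma adjusted p of 0.121. Nr4a3, a close relative of Nr4a1, was at 0.32 and Nab1, a corepressor of EGR factors, at 0.14. Of 18 other rapid primary response genes none passed, with a median of -0.01. Trib1, a pseudokinase gene, was at -0.50, the stress-response gene Gadd45g at -0.37 and the transcription factor gene Klf2 at -0.45, with limma adjusted p-values of 0.146 to 0.213.

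Of 14 delayed effector genes 2 passed as higher, with a median of -0.02. Inhba, which encodes the activin beta-A subunit, averaged 9.45 ± 1.23 CPM in Het (SD, n = 6) and 5.17 ± 1.90 CPM in WT libraries (SD, n = 5), a difference of 0.92 on the log2 scale (SE 0.18, limma adjusted p = 0.0140). Plk2, a kinase involved in homeostatic weakening of synapses, was at 147 ± 22.8 CPM in Het and 115 ± 18.6 CPM in WT libraries, a difference of 0.38 (limma adjusted p = 0.0408). Scg2, a secretory granule protein, stood at -0.16 with an adjusted p of 0.0967.

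Of 22 genes of the calcium, CREB, SRF and MEF2 path that switches the immediate early genes on, 4 passed as higher and none as lower, with a median of 0.23. Camk2a, the alpha subunit of CaM kinase II, averaged 199 ± 20.6 CPM in Het (SD, n = 6) and 124 ± 25.1 CPM in WT libraries (SD, n = 5), a difference of 0.70 on the log2 scale (SE 0.11, limma adjusted p = 0.00624). Crebbp, the acetyltransferase that CREB recruits, was 0.41 higher and Ppp3ca, the catalytic subunit of calcineurin, 0.33 higher. The fourth was Camk4, the nuclear CaM kinase that phosphorylates CREB, at 0.43, which was named after its values were seen.

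**Figure D4:**
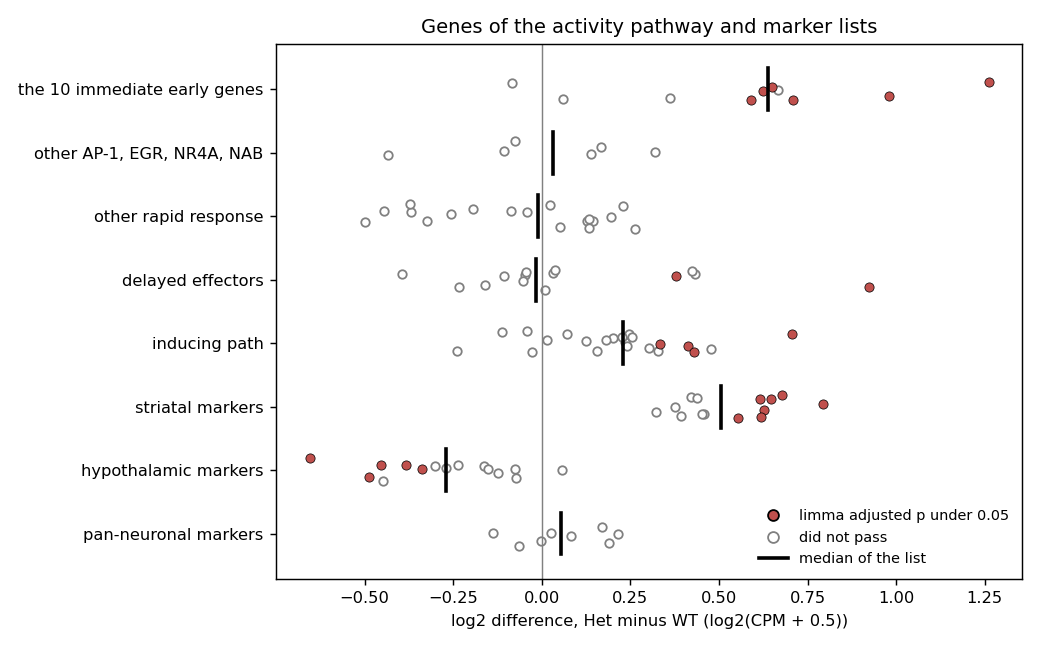
Log2 difference of Het minus WT (horizontal axis) for each tested gene of the 10 immediate early genes, 4 groups of related activity genes and 3 marker groups, filled where the limma adjusted p was under 0.05, with a bar at each median. Filled points lie right of 0 for the immediate early genes, the delayed effectors, the inducing path and the striatal markers, and left of 0 for the hypothalamic markers.

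Between animals of a group, the correlations among the 10 genes spread widely. Over the 11 libraries, with the mean of each genotype and sex group taken off, the 45 pairs had Pearson correlations from -0.91 to 0.95 with a median of 0.24. All pairs among Arc, Junb, Nr4a1, Egr2 and Npas4 were positive, but these 5 were picked out after the correlations were seen. Positive values with all 5 were also found for Egr1 (0.06 to 0.63), Egr3 (0.14 to 0.61) and Fosb (0.16 to 0.66). Egr1 and Egr3 were positive with each other, at 0.58, and negative with Fosb, at -0.40 and -0.51. The strongest pair was Arc with Junb, at r = 0.95 and Spearman's rho = 0.89 (permutation p within groups 0.00463, adjusted over 45 pairs 0.0694), and r was 0.87 without the 2 libraries farthest from the median. Nr4a1 with Junb gave r = 0.87 and rho = 0.87, with a permutation p of 0.00231, the smallest that the 432 arrangements allow, and 0.0694 after adjustment. Fosl2 had negative values against the 5 genes picked out, with r = -0.91 and rho = -0.75 against Junb (permutation p = 0.0139, adjusted 0.0911). Against Arc its r was -0.86 and against Nr4a1 -0.85. Fosl2 was also negative against Egr1, Egr3 and Fosb, at -0.32, -0.35 and -0.30, and positive against Fos, at 0.33. Fos was negative against the same 5 genes too, from -0.11 for Egr2 to -0.84 for Npas4. Against Egr1 and Egr3 Fos stood at -0.69 and -0.19, and against Fosb at 0.09. No pair passed after adjustment, and 14 had an unadjusted permutation p under 0.05. The share among pairs of other genes was not counted, so whether 14 of 45 is particular to the members was not tested. The group means taken off and the direction removed by the authors' correction leave these 11 values fewer than 11 free points.

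**Figure D5:**
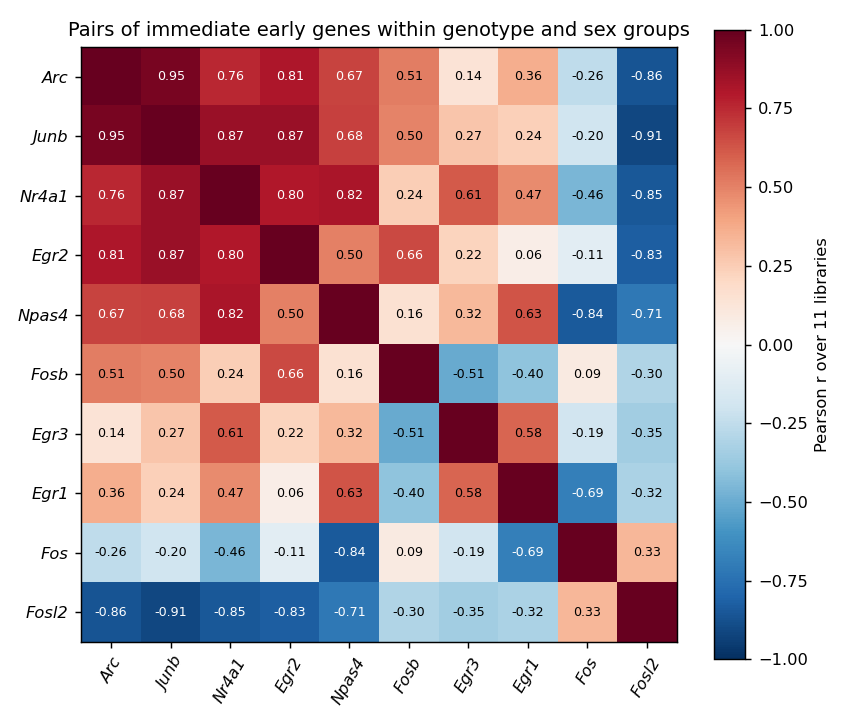
Pearson correlation of each pair of the 10 genes over 11 libraries, after the mean of each genotype and sex group was taken off, coloured from blue (-1) to red (1). Arc, Junb, Nr4a1, Egr2 and Npas4, placed side by side after the values were seen, form a red block with correlations of 0.50 to 0.95. Fosl2 forms a blue column against them and is also negative against Egr1, Egr3 and Fosb.

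By library, Het replicate 4 had the highest level for 5 of the 10 genes and WT replicate 3 the lowest for 6. The shares of all genes at these extremes were not counted, so whether the counts are particular to the members was not tested. WT replicate 3 also had the lowest median log2 level over the genes tested, 4.14, against 4.16 to 4.20 in the other libraries. The genes outside all lists whose level over the 11 libraries was most like the mean of the 10 genes, by Pearson's r after group means were taken off, were Rab26 at 0.99, Rem2 at 0.98, Ccdc12 at 0.98, Dgat2 at 0.98 and Rab40b at 0.97. These 5 were the highest of the tested genes outside the lists, predicted genes left out, so their high values follow in part from that choice. The genotype differences of these 5 genes ran from -0.36 for Rab26 to 0.44 for Rem2, with none past the threshold. Among the members, likeness to the mean of the 10 was highest for Junb and Nr4a1, both at 0.94, and lowest for Fosl2, at -0.83. Each member is part of that mean, which raises its own value.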

How the data were processed

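RNA of 11 hypothalamus libraries was extracted with a Zymo kit and made into libraries with the SMARTer Ultra Low RNA kit, per the labels' protocols. The submitters' processing notes name Trimmomatic, Bowtie2, STAR, HTSeq and build mm10, with no versions. The deposited values are log2 CPM plus a constant after a correction by the authors that the table's name gives as RUVr. For its factors, its design and the gene filter, the settings were not given in the sources used here. Linear CPM had been assumed, so CPM were recovered by back-transforming and subtracting the floor of -3.574. All values came out as whole corrected counts within a tolerance of 0.02. Over 12303 genes, 1 direction across libraries had almost no variation left (singular value 0.250, against 17.4 to 31.3 for the others), so residual variation had been removed and p-values are too small by an unknown amount. Raw read depth is unknown.

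Of 14864 genes, the 13184 whose mean CPM reached 1 were tested on log2(CPM + 0.5) with limma 3.58.1 in R 4.3.3 (trend; terms genotype and sex; two-sided; Benjamini-Hochberg over all genes tested). The fit was tested on simulated data from which no direction had been removed. That test cannot show how the fit behaves on the corrected values. Exact permutations were made within sex for single genes. Exon lengths and overlaps came from GENCODE on the same build. Groups follow the labels. The 10 genes, the lists and the rules were chosen with earlier results of these data known. All 10 members are named, with up to 3 genes of smallest p per activity list and the 5 most similar genes. Of the lists, Fosl1, Amigo3 and Kiss1 were not in the table, and Egr4, Maff, Dusp5, Emx1 and Gbx2 were below the filter. Alternatives changed the pseudocount, filter, scaling, terms, blocks and libraries, and voom weights on the corrected counts were added after the data were seen.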

Additional observations from a re-analysis of the deposited data

Results flagged for a closer look

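Egr1 in the library labelled WT replicate 6 was set apart from the other WT libraries. It stood at 21.4 CPM, against 25.6 to 26.9 CPM in the other 4, and the gap made up 0.766 of the range of the WT group, above Dixon's 95% critical value of 0.71 for 5 samples. This was 1 of 20 groups of values examined, 10 genes in 2 genotypes, and about 1 such group in 20 is set apart by chance. Without that library the log2 difference of Egr1, Het minus WT, was 0.48, with a limma adjusted p of 0.106.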

How the results depend on the processing

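Of the 10 members, 6 passed as higher in Het with pseudocounts of 0.1 and 2, no filter, centring on library medians, quantile and TMM scaling and voom weights. All genes past the threshold numbered 453 (303 higher, 150 lower), but centring gave 233 higher and 243 lower, quantile scaling 362 and 102, TMM scaling 376 and 117 and voom 742 in all (683 and 59). The median of all genes moved by less than 0.1 in each. With other terms or libraries the number of members and of all genes was 5 and 200 with no sex term and 4 and 300 with the prefix block. It was 4 and 229 without WT replicate 11 and Het replicate 9, and 4 and 189 with 1 residual degree of freedom fewer. Without the trend it was 2 and 170, and with the striatal covariate 0 and 42. Prefix 14309 gave 1 and 16 and prefix 14308 gave 0 and 6. In the fit of all 11 libraries with a genotype by sex term it was 0 and 0 for females and 0 and 9 for males. With 1 library left out the range was 2 to 6 members and 140 (WT replicate 6) to 820 (WT replicate 3) genes. In females 1743 genes had an unadjusted limma p under 0.05, and 613 had one for genotype by sex.

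The sign of the genotype difference reversed for Fos (0.037) and Npas4 (-0.19) with the striatal covariate, and for Junb (-1.08 with that covariate); none had passed. Leaving out 1 library took Junb to between -0.24 (WT replicate 3) and 0.31, with -0.03, -0.06 and -0.03 in the runs lacking Het replicate 4, Het replicate 9 and WT replicate 6. For female minus male, 1 member, Fos, passed, and 0 did with the prefix block, in prefix 14309, without WT replicate 11 and Het replicate 9, with 1 residual degree of freedom fewer, without the trend or with the striatal covariate; leaving out 1 library gave 0 to 1. Signs of sex differences that had not passed reversed with the prefix block for Junb (-0.13), Arc (-0.22), Egr2 (-0.25), Nr4a1 (-0.12) and Npas4 (-0.18). In prefix 14309 these were -0.083, -0.20, -0.29, -0.13 and -0.19 for the same 5 genes. Fosl2 reversed without WT replicate 11 and Het replicate 9 (-0.013, against up to 0.15 with 1 library left out) and with the striatal covariate (-0.0057), and Npas4 without Het replicate 4 (-0.0065, in a range up to 0.39 over the runs with 1 library left out). The cause was not tested for any of these.

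Replicate numbers 4 and 7 occur in both groups. Deviations of same-numbered libraries correlated at 0.131 and -0.0919, so the numbers were not taken to pair animals. With a replicate block, 6 members and 437 genes passed. DESeq2 and edgeR were not run, since the deposited values are log2 values after a correction.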
